A study of Homo sapiens with 43 samples.

Results

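A set of 6 short RNAs with stable folds was followed through the eCLIP peak lists of HEK293T cells, a human embryonic kidney line. They are RN7SK, RN7SL1, RN7SL2, RMRP, RPPH1 and VTRNA1-1. Their peaks were chosen by position and strand alone: every called peak that overlapped a window around 1 of the 6 RNAs (the RNA with 50 nt at each end, hg19) by at least 1 nt on the strand of the RNA was taken. This gave 634 peaks out of 1430241 in the 25 lists. No measured value entered the choice. The lists held no called peak on the opposite strand of these windows.

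eCLIP sequences RNA that ultraviolet light has crosslinked to an immunoprecipitated protein, and sets each peak against a size-matched input cut from the same gel region without immunoprecipitation. All cells were crosslinked, and the RNA was cut with RNase I. The tagged cells carry a V5 or FLAG tag at the gene of the RNA-binding protein (RBP) itself, placed with CRISPR/Cas9 per the series title. The 6 tagged libraries were HNRNPC V5 isoform 1, HNRNPC V5 isoform 2, RBFOX2 V5, LIN28 V5, FMR1 FLAG and DGCR8 FLAG. The 5 wild-type libraries used antibodies against the protein, for HNRNPC, RBFOX2, LIN28, FMR1 and DGCR8. Another 7 FLAG-only and 7 V5-only libraries, for which the labels name a tag antibody and no RBP, came from gel ranges 75 kDa wide that began at 25 to 175 kDa in steps of 25 kDa. The labels do not say whether the tagged cells were 1 clone, whether the tag-only cells carried a tag, or which LIN28 paralog was studied. Each library stood alone, so values for 1 RBP have no replicate error. The labels list 1 input for each gel range, so the FLAG-only and V5-only libraries of a range were not measured against separate labelled inputs. The lists held 25723 to 100860 peaks, their median log2 fold ran from 1.05 upwards, and the depth in reads is unknown. The list of FLAG-only 125 to 200 kDa stood apart, with the highest median log2 fold (2.89) and the largest share of significant peaks, as defined below (22.1%).

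All of these RNAs are made by RNA polymerase III and act inside ribonucleoprotein particles. RN7SK, the 7SK RNA, is the scaffold of a nuclear particle that holds the elongation factor P-TEFb inactive. RN7SL1 and RN7SL2 encode the 7SL RNA of the signal recognition particle, which brings ribosomes making secreted proteins to the endoplasmic reticulum. RMRP and RPPH1 are the related RNA subunits of the nucleases RNase MRP and RNase P, which process ribosomal RNA and transfer RNA precursors. VTRNA1-1 is a vault RNA, part of it bound in the large cytoplasmic vault particle. The log2 fold of a peak compares the immunoprecipitate with its input, so a value below 0 means a smaller share in the immunoprecipitate than in the input.

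A stretch of RN7SK and the whole of VTRNA1-1 are printed here from GENCODE 29 transcripts (GRCh38), 5′ to 3′, written as DNA. Capitals mark GGAG, a motif bound by LIN28 proteins, and GCATG, the RBFOX motif, on the strand of the RNA. RN7SK is shown from the first base of its 3′ peaks onwards because peaks were called there in every library, and VTRNA1-1 because it alone had a median fold above 0 (−1.49 once list medians were subtracted).
RN7SK, positions 232 to 328 of 328, chr6:52995852-52995948, plus strand: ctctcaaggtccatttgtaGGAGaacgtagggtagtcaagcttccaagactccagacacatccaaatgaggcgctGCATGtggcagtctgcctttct
VTRNA1-1, chr5:140711275-140711373, plus strand, 99 nt: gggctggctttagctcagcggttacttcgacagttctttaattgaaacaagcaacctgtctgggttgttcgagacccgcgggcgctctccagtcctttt

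RN7SL1 and RN7SL2 are near-identical copies, so the assignment of a peak to one or the other is uncertain. Positions of peaks below are counted along the hg19 window, from 1 at the first base after the 50 nt at its 5′ end. That span was longer than the transcript by 4 nt for RN7SK and 8 nt for RPPH1, so peak positions and transcript positions can differ by these amounts.

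No peak on these RNAs was significantly enriched over input in any of the 25 libraries. A peak was called significant with a log2 fold of 3 or more (8-fold) and a −log10 p of 3 or more, which 5.96% of all peaks in the lists reached. Were the peaks independent, 0 of 634 would allow a share of up to 0.473%, counting error only. They recur on the same 6 RNAs from list to list, and 299 are on RPPH1, so this limit is too tight. Most of the peaks lay below input: 612 of 634 (96.5%) had a log2 fold below 0, against 6.12% of all peaks. Their median log2 fold was −2.27, against 1.68 over all peaks. Within its own list, 559 of the 634 peaks (88.2%) were among the 1% of peaks with the lowest fold. The authors' −log10 p was 0 for every peak with a negative fold, so the lists carry no p for depletion and none is given here. A stricter −log10 p of 5 or more, at the same fold threshold, could only give 0 peaks again (3.57% of all peaks passed it). With the log2 fold threshold lowered to 2, 3 peaks passed (12% of all peaks), and at 1, 4 peaks passed (14.4% of all peaks).

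**Figure D1:**
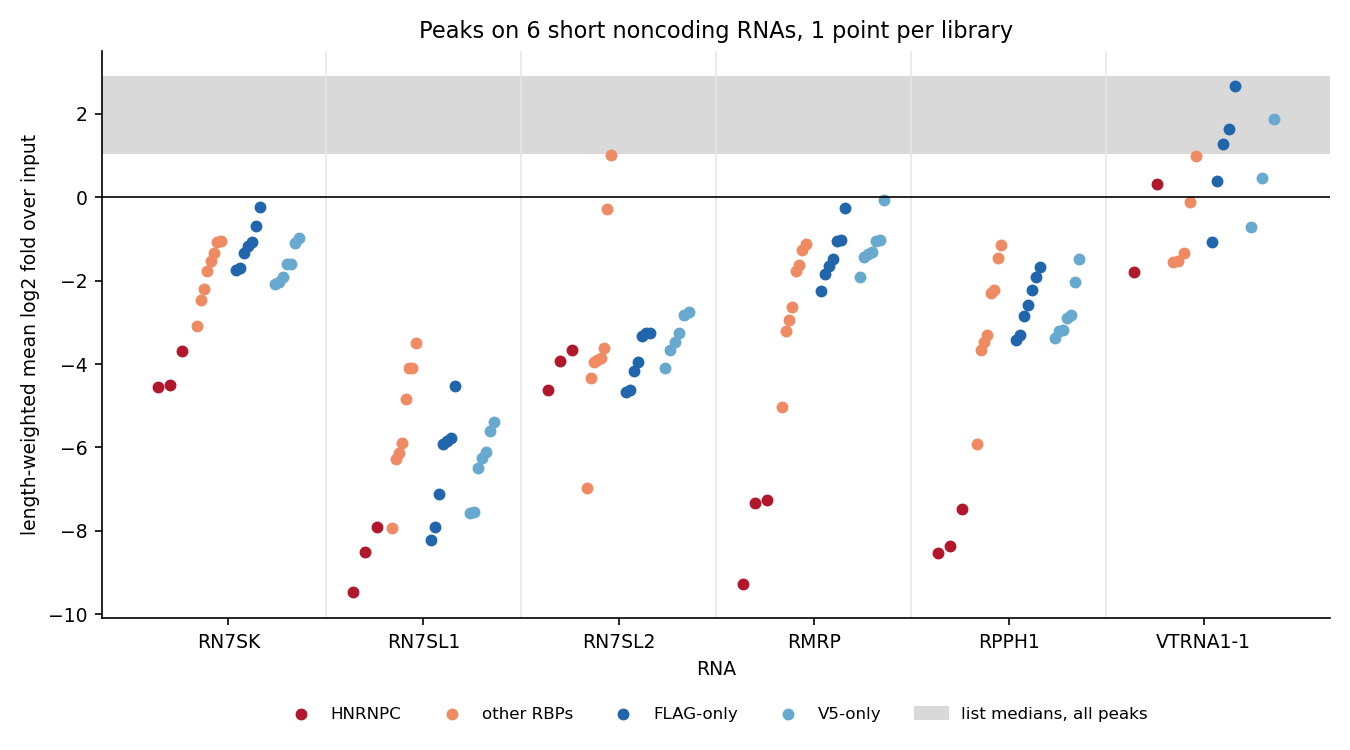
Length-weighted mean log2 fold over input (y axis) of the called peaks on each RNA (x axis), 1 point per library, for HNRNPC, other RBP, FLAG-only and V5-only libraries. The grey band spans the median log2 fold of all peaks over the 25 lists; the RN7SL1 points run from −9.47 to −3.49, and 8 of 15 VTRNA1-1 points lie above 0.

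The level of an RNA in a library was taken as the mean log2 fold of its peaks, weighted by their length, and is a ratio to input and not an abundance. By the median over libraries the order from the lowest was RN7SL1 (−6.12, 25 libraries), RN7SL2 (−3.77, 24 libraries), RPPH1 (−2.89, 25 libraries), RMRP (−1.62, 25 libraries), RN7SK (−1.61, 25 libraries) and VTRNA1-1 (0.31, 15 libraries). RN7SL1 lay below RN7SL2 in 23 of 24 lists and RPPH1 below RMRP in 23 of 25. The neighbours RN7SL2 and RPPH1 were not separated as clearly, with RN7SL2 the lower in 16 of 24 lists. RMRP was below RN7SK in 17 of 25, and their medians differed by far less than the spread over libraries (SD 2.32 for RMRP and 1.09 for RN7SK). VTRNA1-1 was above RN7SK in 14 of the 15 lists with a peak on both.

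The 7SL RNA of the signal recognition particle gave the lowest folds. RN7SL1 had a peak in all 25 lists, and its 29 peaks all lay at a log2 fold of −3.09 or lower. In RBP libraries other than HNRNPC its mean ran from −7.94 in FMR1 FLAG over a median of −5.36 to −3.49 in DGCR8 wild type. The HNRNPC libraries gave −9.47 for V5 isoform 1, −8.50 for V5 isoform 2 and −7.90 for wild type. FLAG-only libraries ran from −8.21 to −4.53 with a median of −5.93, and V5-only libraries from −7.57 to −5.38 with a median of −6.25. These groups overlapped, apart from HNRNPC V5 isoforms 1 and 2, which were the 2 lowest libraries for this RNA.

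RN7SL1 was the lowest of the 6 RNAs in 23 libraries. In 10 lists the peak of lowest fold among all peaks of the list was on a 7SL copy. RN7SL1 was among the 10 lowest peaks of 22 lists, a number matched by 1 other region, chr3:181540726-181540778 on the minus strand (hg19), whose gene the files do not name. The signal assigned to RN7SL1, which is uncertain between the near-identical copies, came mainly from its 3′ part. Positions 249 to 270 were covered in all 25 libraries, and the median log2 fold there was −6.27. Beyond 1 such peak per library there were 4 others, among them one at 11 to 34 in FLAG-only 50 to 125 kDa and one at 179 to 199 in V5-only 50 to 125 kDa.

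RN7SL2 carried the peak of highest fold among the 6 RNAs, in LIN28 V5. A VTRNA1-1 peak in FLAG-only 175 to 250 kDa, a library without a named RBP, reached 2.66. LIN28, best known for holding back the maturation of let-7 microRNAs, had a peak at positions 148 to 174 in LIN28 V5 (chr14:50329394-50329420, minus strand, hg19) with a log2 fold of 2.83 and a −log10 p of 68.8. LIN28 wild type had one at 147 to 177 (chr14:50329391-50329421) with a log2 fold of 2.01 and a −log10 p of 10.7. Both stayed below the significance threshold of 3 on the log2 scale, and 82.5% of the peaks of the LIN28 V5 list and 60.5% of the LIN28 wild-type list had a lower fold. LIN28 V5 had further peaks above 0 at 175 to 194 (0.68) and 195 to 231 (0.27), and LIN28 wild type one at 178 to 190 (0.0022).

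Over this middle stretch of RN7SL2 the mean was 1.19 in LIN28 V5 but −0.28 in LIN28 wild type. The lowest RN7SL2 peak of LIN28 wild type was at −1.94. The other 14 libraries with a peak in this stretch all had a mean below 0 there. They ran from −4.63 in HNRNPC V5 isoform 1 to −0.37 in V5-only 125 to 200 kDa. The LIN28 peaks on RN7SL1 lay further 3′, at 200 to 281 in V5 (−4.83) and at 213 to 245 (−3.92) and 246 to 291 (−4.23) in wild type.

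Within RN7SL2 the fold was lower towards the 3′ end from position 80 or so onwards. Peaks at 5′ positions around 80 to 110 were called in 10 libraries, with a log2 fold of −2.91 to −0.30. In the 8 libraries that also had a peak in the 3′ stretch, the 5′ peak was the higher by 3.31 to 6.95 in every one. The middle stretch was higher than the 3′ stretch in 9 of 9 libraries, by 1.85 to 5.11. The 3′ stretch of RN7SL2 ran from −8.10 to −3.90 over 17 libraries, a range within that of RN7SL1. A further 3 peaks, all in V5-only libraries, lay in the first 33 positions at −4.22 to −2.45. V5-only 50 to 125 kDa was the library without any RN7SL2 peak. The stretches were set after the peaks had been seen, so these counts are descriptions.

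**Figure D2:**
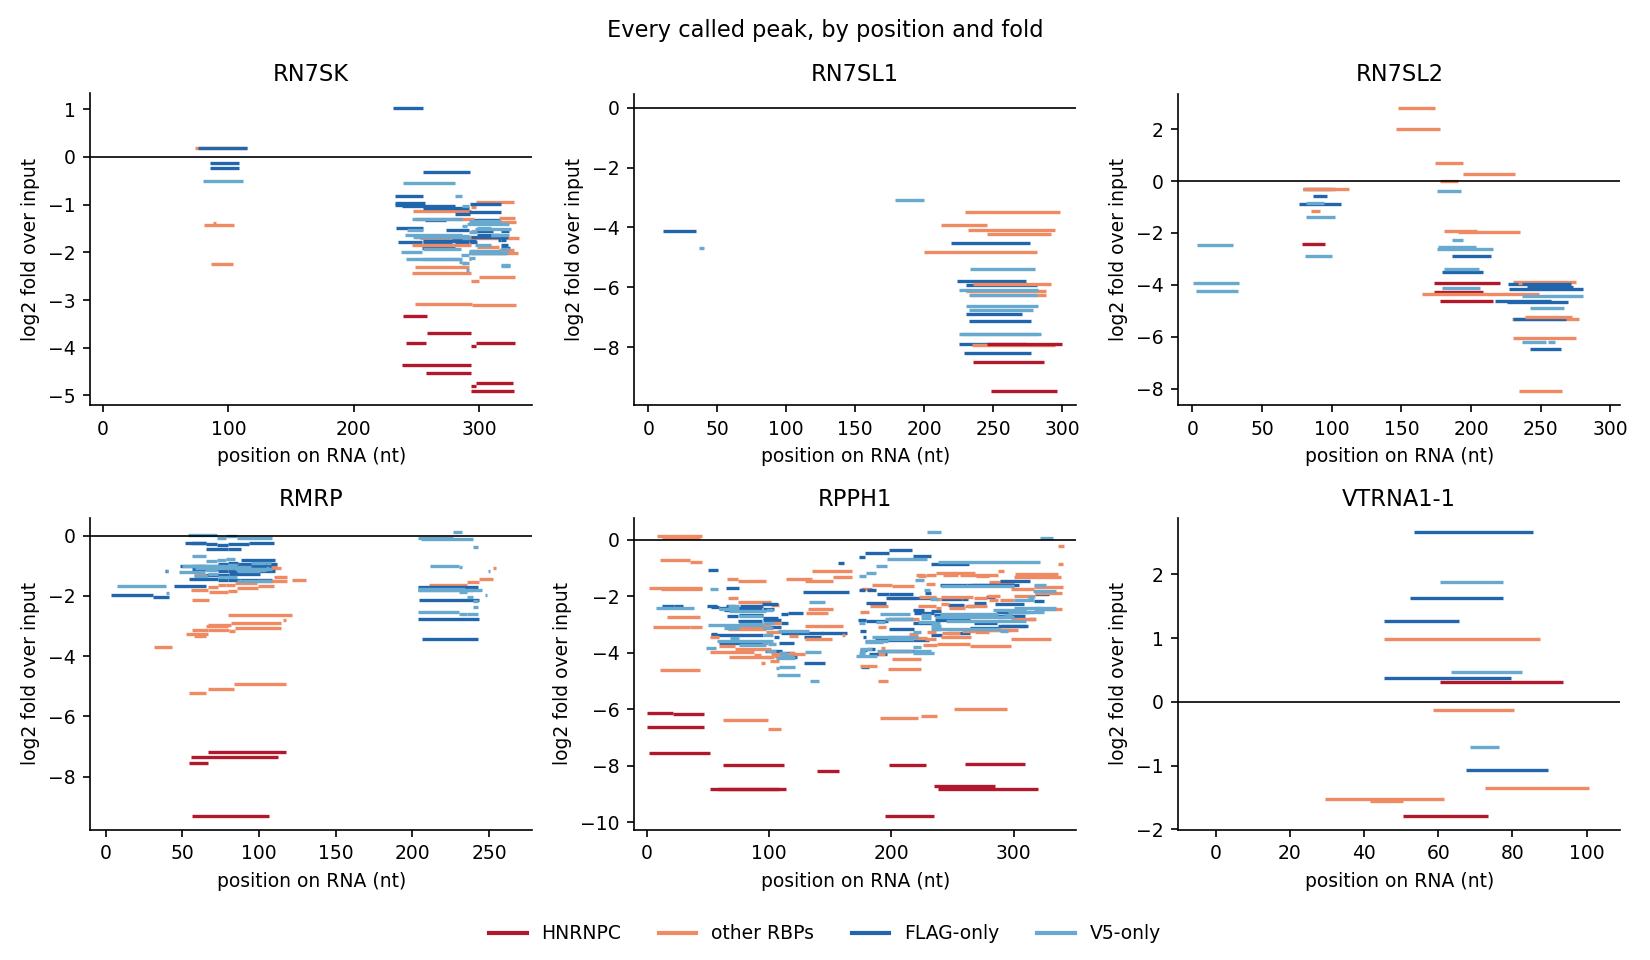
Every called peak on the 6 RNAs, drawn from its first to its last position on the RNA in nt (x axis) at its log2 fold over input (y axis), coloured by HNRNPC, other RBP, FLAG-only and V5-only libraries. RN7SL1 peaks cluster at the 3′ end, RN7SK peaks form a 5′ and a 3′ group, and the 2 highest segments of RN7SL2, at 2.83 and 2.01, are the LIN28 peaks.

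RN7SK, the scaffold of the 7SK particle, came just below VTRNA1-1 in the order of medians and had 2 to 7 peaks per library. The HNRNPC libraries gave a mean log2 fold of −4.51 (V5 isoform 1), −3.69 (V5 isoform 2) and −4.56 (wild type). Other RBP libraries ran from −3.08 (RBFOX2 wild type) over a median of −1.65 to −1.06 (DGCR8 wild type). FLAG-only libraries ran from −1.74 to −0.23 with a median of −1.16, and V5-only libraries from −2.09 to −0.99 with a median of −1.61. The HNRNPC libraries stood below all 22 other libraries, and the FLAG-only and V5-only ranges overlapped.

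Positions 253 to 316 of RN7SK were covered in all 25 libraries, and 57.5% of the RNA was never covered. A second group of peaks at 74 to 114 appeared in 8 libraries, DGCR8 FLAG, LIN28 V5, FMR1 FLAG, DGCR8 wild type, 3 FLAG-only ranges and 1 V5-only range. The 5′ peak was higher than the 3′ stretch in 6 of these 8 libraries. It was just above input in DGCR8 wild type (0.18) and FLAG-only 25 to 100 kDa (0.19). One more RN7SK peak above 0 lay at 232 to 255 in FLAG-only 125 to 200 kDa, with a log2 fold of 1.03 and a −log10 p of 400, the cap of the lists. This low fold ranked above only 4.04% of the peaks in that list. The printed stretch of RN7SK holds GGAG at 251 to 254 and GCATG at 307 to 311 of the transcript. Such a match is a description and not a binding site, and among 6165 GENCODE transcripts of 260 to 340 nt 85.6% hold GGAG and 27.4% hold GCATG. The RN7SK means of the LIN28 and RBFOX2 libraries were all below 0, between −3.08 and −1.34.

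RMRP, the RNA of RNase MRP, had an SD of 2.32 over the 25 libraries, which rested on HNRNPC: the SD was 1.30 over the 8 other RBP libraries, below that of RN7SL2 (2.49), RPPH1 (1.52) and RN7SL1 (1.48), and 0.59 over the 14 tag-only libraries. With HNRNPC its mean log2 fold was −9.29 (V5 isoform 1), −7.33 (V5 isoform 2) and −7.25 (wild type). Other RBP libraries ran from −5.02 (RBFOX2 wild type) over −2.21 to −1.11 (DGCR8 FLAG). FLAG-only libraries ran from −2.26 over −1.48 to −0.27 and V5-only libraries from −1.90 over −1.32 to −0.07. The HNRNPC values were again below those of all 22 other libraries.

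Between positions 59 and 100 of RMRP, 39 positions were covered in all 25 libraries. A second stretch near the 3′ end, up to position 254, had peaks in DGCR8 wild type alone among 11 RBP libraries, against 4 of 7 FLAG-only and 7 of 7 V5-only libraries. The mean there was −1.55 in DGCR8 wild type, −3.45 to −1.72 in FLAG-only and −2.55 to −0.03 in V5-only libraries. It was below the 5′ stretch of the same library in 10 of 12 libraries (higher in 2 of 12).

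RPPH1, the RNA of RNase P, had the most peaks, 299 in all and up to 20 in LIN28 V5, and 1.17% of its positions were never covered. For HNRNPC its mean log2 fold was −8.36 (V5 isoform 1), −7.47 (V5 isoform 2) and −8.53 (wild type). Other RBP libraries ran from −5.92 (RBFOX2 wild type) over −2.80 to −1.14 (DGCR8 wild type), FLAG-only libraries from −3.41 over −2.59 to −1.66 and V5-only libraries from −3.38 over −2.89 to −1.47. The 3 HNRNPC libraries were below all 22 others, and the ranges of the other groups overlapped. Its highest folds in RBP libraries were both DGCR8 peaks at the 5′ end, at 13 to 43 in FLAG (0.04) and 9 to 45 in wild type (0.13), neither with a −log10 p above 1.

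HNRNPC, which packages nascent nuclear RNA and prefers runs of uridine, thus had all of its libraries below every other library for RN7SK, RMRP and RPPH1, but not for RN7SL1, RN7SL2 or VTRNA1-1. On RN7SL2 no HNRNPC library had a peak in the 3′ stretch, where 17 others ran from −8.10 to −3.90. In its middle stretch HNRNPC ran from −4.63, the lowest of 16 libraries, to −3.93, with RBFOX2 wild type at −4.34. The median folds of its lists (1.05 to 1.19) were at the low end of the series, among them the lowest of the 25 lists (1.05, wild type), with V5-only 25 to 100 kDa (1.16) in the same range. After the median of each list was subtracted, the HNRNPC libraries were still the lowest for the same 3 RNAs, with the highest HNRNPC value at −4.89 for RN7SK, −8.31 for RMRP and −8.66 for RPPH1 and the lowest other value at −4.58, −6.52 and −7.42. The motif TTTTT, bound by HNRNPC, was found in none of the transcripts of RN7SK, RMRP, RPPH1 and VTRNA1-1, which says only that these letters are not in them, and in 23.6% of GENCODE transcripts of 260 to 340 nt. At the other end, DGCR8, the partner of DROSHA in microRNA processing, had the 2 highest of the 11 RBP values for RN7SK, RN7SL1, RMRP and RPPH1. With list medians subtracted this held for RN7SK, RMRP and RPPH1, while for RN7SL1 DGCR8 FLAG (−5.78) came below LIN28 wild type (−5.69), with DGCR8 wild type at −5.23. Before the subtraction these 2 libraries were both at −4.10 for RN7SL1, DGCR8 FLAG by a hair the higher. Tag-only libraries, without a named RBP, reached above both DGCR8 values for RN7SK (up to −0.23) and RMRP (up to −0.07). They did not for RN7SL1 (up to −4.53) or RPPH1 (up to −1.47). Depth is unknown and each RBP library has its own labelled input. The part of depth and input in these orders was not tested.

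VTRNA1-1, the vault RNA, differed from the others in being missed often and in the sign of its fold over input, which turned when list medians were subtracted. It had 1 peak in each of 15 libraries and none in 10, and 8 of the 15 were above 0. Of these 8, only the peak of FLAG-only 175 to 250 kDa had a −log10 p of 3 or more. The others had a −log10 p from 0 (HNRNPC wild type) to 1.80, so their sign is uncertain. RBP values were 0.98 in LIN28 V5, −1.52 in DGCR8 FLAG, −1.55 in FMR1 FLAG, −1.79 in HNRNPC V5 isoform 2, 0.31 in HNRNPC wild type, −0.13 in DGCR8 wild type and −1.35 in RBFOX2 wild type. FLAG-only values were −1.07 at 50 to 125 kDa, 1.26 at 75 to 150, 0.38 at 100 to 175, 1.63 at 150 to 225 and 2.66 at 175 to 250 kDa. V5-only values were −0.72 at 50 to 125, 0.47 at 75 to 150 and 1.88 at 175 to 250 kDa. Both tag antibodies had their highest value in the heaviest range and no peak at 25 to 100 or 125 to 200 kDa. The FLAG-only peak of 2.66 lay at 54 to 85 (chr5:140090912-140090943, plus strand, hg19) with a −log10 p of 5.36, while the V5-only peak of that range had a −log10 p of 1.80. Position 73 was covered in 12 libraries, the most of any on this RNA. Set against the median of its own list the sign turned: the median was −1.49, and the values above it were those at 175 to 250 kDa, by 0.83 in FLAG-only and 0.38 in V5-only.

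**Figure D3:**
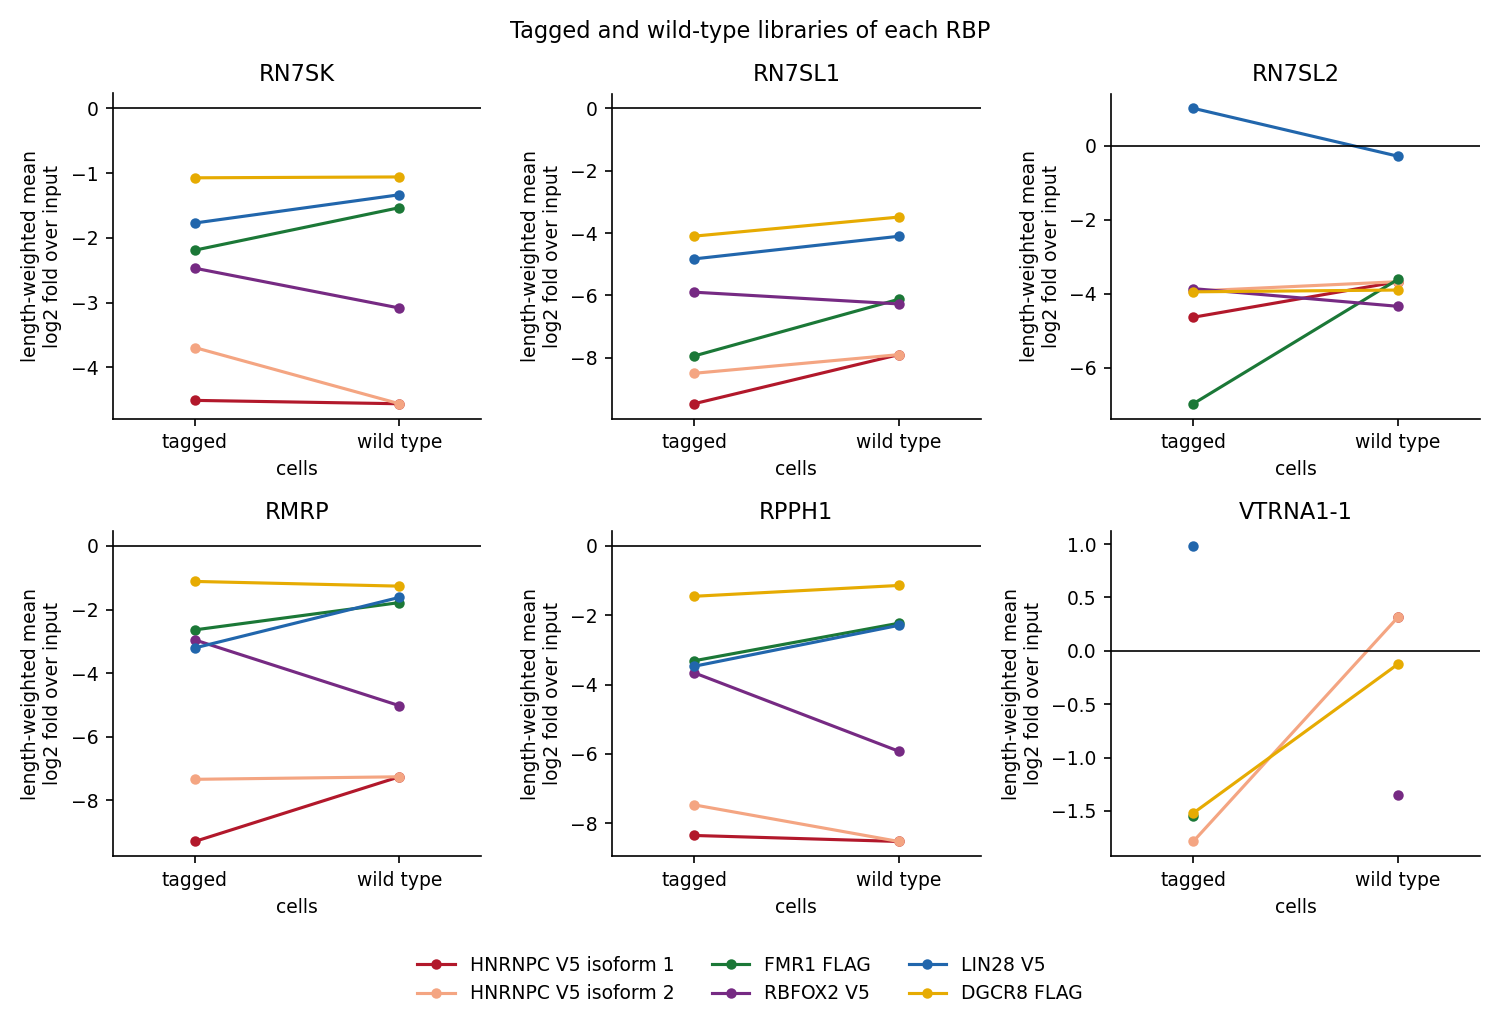
Length-weighted mean log2 fold over input (y axis) in the tagged library (left) and the wild-type library (right) of each RBP, 1 line per pair; both HNRNPC isoforms are joined to the same wild-type library, and single points had a peak in 1 state only. RBFOX2 lines go down to the right and FMR1 lines up in each panel where both states have a value.

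The tag was set against the antibody to the protein for each RBP, with 1 library per state and therefore no test. Tagged and wild-type libraries each have their own labelled input, so tag, antibody, cells and input cannot be told apart. RBFOX2, a splicing regulator, had higher values in V5 than in wild type for 5 of 5 RNAs with both values. The difference was 2.26 for RPPH1 (−3.66 in V5 and −5.92 in wild type), 2.07 for RMRP (−2.95 in V5 and −5.02 in wild type), 0.62 for RN7SK, 0.48 for RN7SL2 and 0.38 for RN7SL1. FMR1, a translational regulator, went the other way for 5 of 5 RNAs, with differences of −3.36 for RN7SL2 (−6.97 in FLAG and −3.61 in wild type), −1.82 for RN7SL1, −1.08 for RPPH1, −0.86 for RMRP and −0.66 for RN7SK. The median of all peaks differed in the opposite direction for both, by −0.20 for RBFOX2 and 0.54 for FMR1. Subtracting the list medians thus widened these differences. The means are weighted by length, so they also depend on which positions were called. For RN7SL2 the called peaks of FMR1 FLAG covered 37 nt, against 78 nt for FMR1 wild type. Compared by stretch, FMR1 FLAG was still the lower, at −8.10 against −6.04 in the 3′ stretch and −1.15 against −0.30 in the 5′ stretch.

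LIN28 V5 was below LIN28 wild type for RN7SK (−0.44), RN7SL1 (−0.73), RMRP (−1.59) and RPPH1 (−1.18). It was above LIN28 wild type for RN7SL2 (1.29), the RNA with the highest LIN28 peaks. DGCR8 FLAG differed from wild type by 0.15 for RMRP and by −0.61 to −0.01 for RN7SK, RN7SL1, RN7SL2 and RPPH1, with −1.40 for VTRNA1-1. With list medians subtracted, the DGCR8 difference changed sign for RN7SK (0.05 in place of −0.01) and RN7SL2 (0.02 in place of −0.05), so that DGCR8 FLAG was higher for 3 of 6 RNAs and not 1 of 6. These near-equal means also depend on which positions were called. In the 3′ stretch of RN7SL2, DGCR8 FLAG was the lower, at −5.32 against −3.90 in wild type. On RN7SK it was lower in the 5′ stretch (−1.39 against 0.18) and higher in the 3′ stretch (−1.06 against −1.70). HNRNPC V5 isoform 1 was below wild type for RMRP (−2.03), RN7SL1 (−1.57) and RN7SL2 (−0.96) and above it for RPPH1 (0.17) and RN7SK (0.05, but −0.0060 with list medians subtracted). HNRNPC V5 isoform 2 was above wild type for RN7SK (0.87) and RPPH1 (1.06) and below it for RN7SL1 (−0.60), RN7SL2 (−0.25), RMRP (−0.08) and VTRNA1-1 (−2.10). On RN7SL2 the HNRNPC wild-type mean included a 5′ peak (−2.44) that neither isoform had. In the middle stretch of RN7SL2, isoform 2 (−3.93) was above wild type (−4.27) and isoform 1 (−4.63) below it. Covered by significant peaks, tagged and wild-type libraries both had 0 nt in all 36 pairs.

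**Figure D4:**
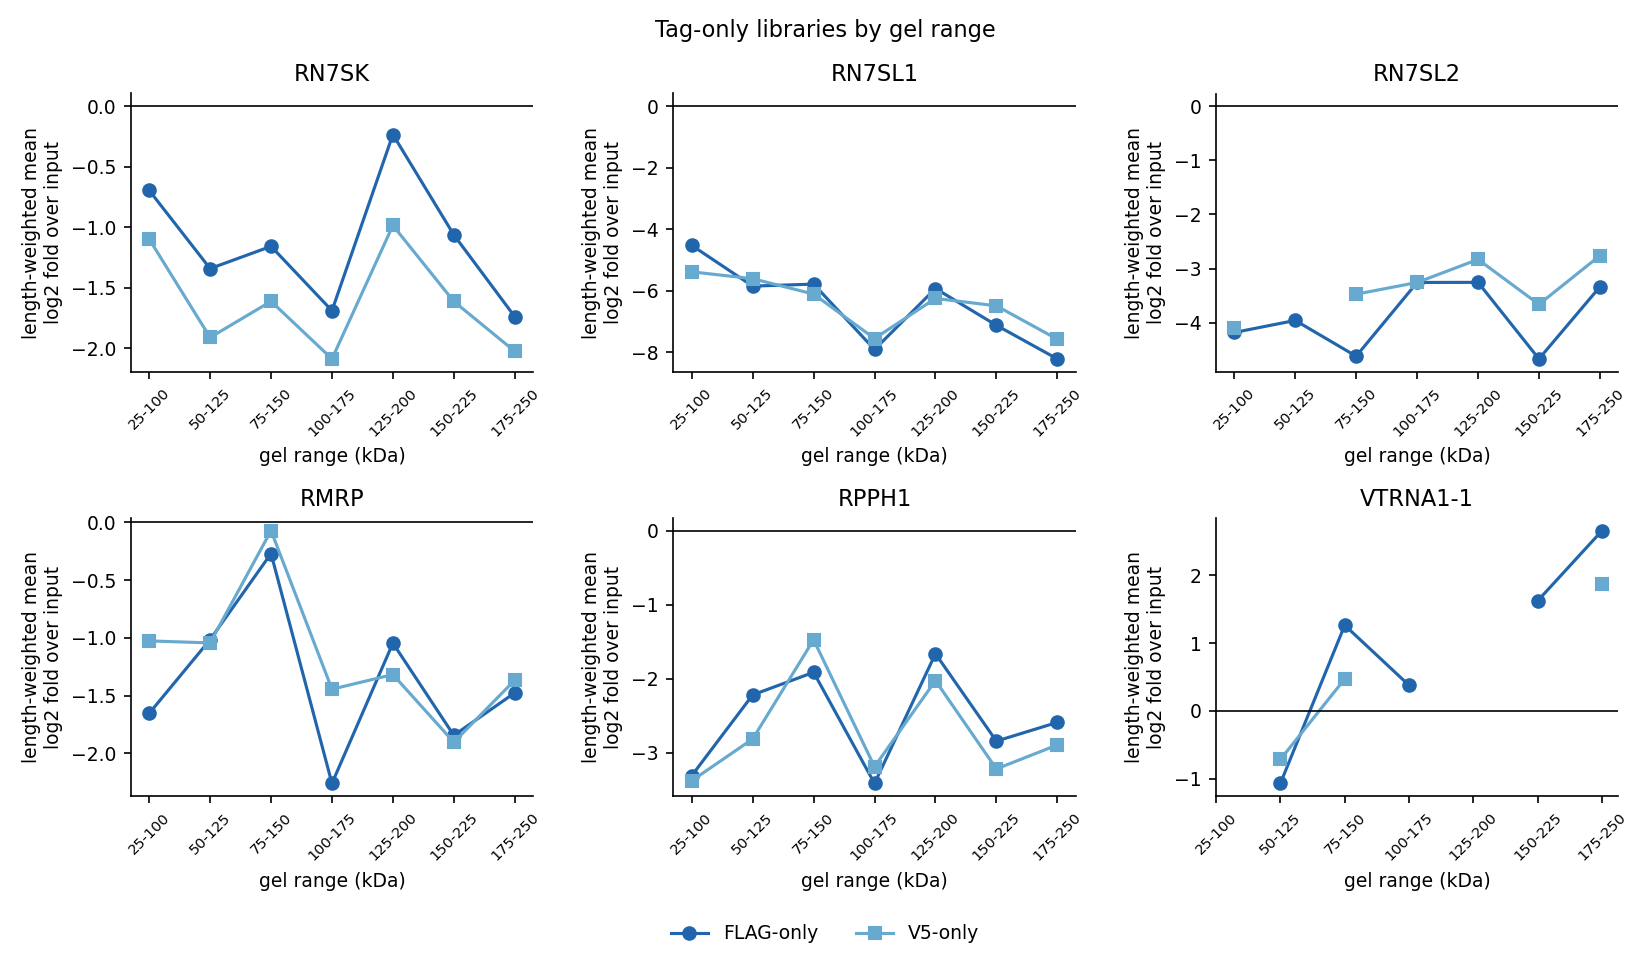
Length-weighted mean log2 fold over input (y axis) in FLAG-only and V5-only libraries by gel range in kDa (x axis), 1 panel per RNA; missing points had no peak. For RN7SK the FLAG-only line lies above the V5-only line in all 7 ranges, and VTRNA1-1 has its highest points, 2.66 and 1.88, at 175 to 250 kDa.

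Whether the FLAG and V5 antibodies alone gave different background on these RNAs was examined across the 7 gel ranges. For RN7SK the FLAG-only value exceeded the V5-only value in 7 of 7 ranges, by 0.49 ± 0.15 on the log2 scale (SD, n = 7), with the largest difference, 0.75, at 125 to 200 kDa. The FLAG-only lists as a whole had the higher median log2 fold too, in 7 of 7 ranges and by 0.17 to 0.65. With list medians subtracted the RN7SK difference was 0.08 ± 0.14 and positive in 4 of 7 ranges. RMRP differed by −0.20 ± 0.39 (FLAG-only higher in 3 of 7 ranges), RPPH1 by 0.15 ± 0.37 (5 of 7), RN7SL1 by −0.05 ± 0.57 (3 of 7) and RN7SL2 by −0.54 ± 0.47 (1 of 6 ranges with both values). After list medians were subtracted, FLAG-only was below V5-only in every range with both values for RMRP (−0.60 ± 0.26, n = 7), RPPH1 (−0.26 ± 0.26, n = 7) and RN7SL2 (−0.90 ± 0.58, n = 6). The sign of the RPPH1 difference thus depends on this scaling. Folds of separate lists were set side by side and not tested.

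For some RNAs both antibodies had their highest value in the same range. RMRP was highest at 75 to 150 kDa with both, at −0.27 in FLAG-only and −0.07 in V5-only libraries. RN7SL1 was highest at 25 to 100 kDa with both, at −4.53 in FLAG-only and −5.38 in V5-only libraries. Both ranges stayed the highest when list medians were subtracted. RN7SK was highest at 125 to 200 kDa with both, at −0.23 in FLAG-only and −0.99 in V5-only libraries, but that range also had the highest list median with both (2.89 in FLAG-only and 2.37 in V5-only). With list medians subtracted RN7SK was instead highest at 25 to 100 kDa, at −2.02 in FLAG-only and −2.25 in V5-only libraries. For RPPH1 the ranges differed, with −1.66 at 125 to 200 kDa in FLAG-only and −1.47 at 75 to 150 kDa in V5-only libraries, but after the subtraction 75 to 150 kDa was highest with both, at −3.99 in FLAG-only and −3.26 in V5-only libraries. The inputs are labelled by range alone, so range and input cannot be told apart.

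Tests were run on the length of each RNA covered by peaks, over the gel ranges for the antibodies and over RBPs against gel ranges for the RBPs. Covered by significant peaks, this length was 0 nt in every library, so the 12 tests have no p-value. With any called peak counted instead, none of the 12 tests passed an adjusted p of 0.05. RN7SK was covered over 100.1 ± 13.1 nt in FLAG-only and 86.3 ± 10.5 nt in V5-only libraries (SD, n = 7 ranges), more in FLAG-only in 7 of 7 ranges (exact sign-flip permutation over ranges, two-sided, p = 0.0156, which is the smallest that 7 ranges can give; adjusted p = 0.0938 over 12 tests). The paired difference was 13.9 ± 13.5 nt (SD). It was 32 nt at 50 to 125 kDa and 35 nt at 75 to 150 kDa, where FLAG-only alone had a 5′ peak. In the other ranges it was 4 to 8 nt. RMRP was covered over 66.1 ± 8.04 nt in RBP and 87.7 ± 11.99 nt in tag-only libraries (SD over 5 RBPs and 7 ranges; two-sided exact permutation p = 0.00884, adjusted p = 0.0938). VTRNA1-1 was covered over 19.0 ± 13.9 nt in FLAG-only and 6.29 ± 8.54 nt in V5-only libraries, more in FLAG-only in 5 of 7 ranges (exact sign-flip permutation p = 0.0625, adjusted p = 0.25). Neighbouring ranges share 50 kDa and nothing says that libraries came from separate cultures, so these p-values measure the spread between these libraries only.

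Regions elsewhere in the genome that followed the same order of libraries were found by Spearman's rho of the highest log2 fold, among regions merged over the lists with a peak in at least 20 libraries (12 to 25 shared libraries). For RN7SK the 3 most similar were chr19:49993105-49993179 on the plus strand (rho 0.84, 20 libraries), chr19:49990861-49990903 on the plus strand (0.84, 20 libraries) and chr17:19091362-19091448 on the plus strand (0.83, 25 libraries), against a median rho of 0.32 over 3151 regions. For RMRP the closest was chr11:62392751-62392828 on the minus strand (0.88, 21 libraries), for RPPH1 chr1:28906272-28906426 on the minus strand (0.78, 25 libraries), for RN7SL1 chr15:65588431-65588505 on the plus strand (0.77, 25 libraries), and for RN7SL2 chr5:137088371-137088522 on the minus strand (0.84, 21 libraries). VTRNA1-1 was matched by chr19:14201017-14201327 on the minus strand (0.94, over 12 libraries only). Among the 6 RNAs the highest rho values were 0.64 for RN7SK and RMRP and 0.63 for RMRP and RPPH1 (25 libraries each), and the 2 7SL copies had a rho of 0.10 over 24 libraries. All of these points share the library, its input and its depth, and the chosen regions are the extreme of many, so the values are descriptions. Coordinates are hg19, and the files name no gene for these regions.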

How the data were processed

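The 25 eCLIP peak lists (11 RBP, 7 FLAG-only and 7 V5-only libraries) were used as deposited. The 18 input samples entered only through the authors' normalisation. Each deposited list gives, per peak and library, the authors' −log10 p and the authors' log2 fold over size-matched input, without a header. Both are the authors' own values and were used to describe, rank or filter peaks. Per the submitters' processing notes the build is hg19 and the tools include cutadapt, STAR, GATK, Picard and SAMtools; they name no peak caller, and depth is not known from the files, so no interval on a fold is possible.

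Peaks overlapping a window by 1 nt on its strand were taken, and mean folds weighted by overlap (python 3.11.15, numpy 2.4.6, pandas 2.3.3). Covered lengths were compared by exact permutation tests with Benjamini-Hochberg adjustment over 12 tests, after checks on simulated data. FLAG-only and V5-only libraries were paired by the gel range in their labels. All 6 RNAs were named by rule, with the 3 most similar regions each. The members and lists were chosen with earlier results of these data known. A list of partner proteins and other short RNAs was not analysed here, because no hg19 annotation was used. Printed sequences are from GENCODE 29 (GRCh38), those of the 7SL copies are not reported here, and no coordinates were converted. Alternatives were other thresholds, windows without the 50 nt ends, an overlap of at least 0.5 of the peak, any called peak, leaving out 125 to 200 kDa or HNRNPC, unpaired ranges, and 11 against 14 libraries (100000 resamples).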

Additional observations from a re-analysis of the deposited data

Results flagged for a closer look

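The direction of the difference between tagged and wild-type libraries was not the same for all RBPs in 5 of the RNAs. With each of the 6 tagged libraries set against its wild type, the length-weighted mean log2 fold was higher in the tagged library in 3 of 6 pairs for RN7SK, 1 of 6 for RN7SL1, 2 of 6 for RN7SL2, 2 of 6 for RMRP and 3 of 6 for RPPH1. RBFOX2 V5 was on the higher side for all 5 RNAs and FMR1 FLAG on the lower side for all 5. With list medians subtracted, DGCR8 FLAG moved to the higher side for RN7SK and RN7SL2, and HNRNPC V5 isoform 1 to the lower side for RN7SK. The DGCR8 means of these RNAs rest on differing called positions in the tagged and wild-type libraries. Each state had 1 library and both HNRNPC isoforms share their wild type, so the difference between RBPs was not tested. Among 11 sets of libraries examined for a single library far from the others, 0 had one, where 0.55 would be flagged by chance.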

How the results depend on the processing

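Apart from the results named here, recomputed results that were not 0 in the main setting kept their direction, their side of the threshold, and their size within the spread over libraries. Lengths covered by significant peaks were 0 nt in the main setting, so they had no direction or size to keep. Settings that only narrowed the peaks, windows or libraries could only give 0 again. The number of libraries with a significant peak became 2 for RN7SL2 and 1 for VTRNA1-1 at a log2 fold of at least 2, and 2 for RN7SL2, 1 for VTRNA1-1 and 1 for RN7SK at a log2 fold of at least 1, from 0 for each. With any called peak, the RMRP difference in covered length passed the threshold once libraries were counted singly (−22.4 nt for 11 RBP minus 14 tag-only libraries, permutation test, adjusted p = 0.00474), although libraries of 1 RBP or 1 range are not independent. It was −19.2 nt without HNRNPC (adjusted p = 0.0909) and −20.9 nt without 125 to 200 kDa (adjusted p = 0.188), both by exact permutation. Without the replicate block, that is with gel ranges unpaired, the RN7SK difference between FLAG-only and V5-only was 13.9 nt (exact permutation p = 0.0589, adjusted p = 0.198). Combining any called peak with these settings, and all alternatives for the median folds, were chosen after seeing the data. With the median of each list subtracted, the median fold over libraries was −3.35 for RN7SK, −7.89 for RN7SL1 and −5.26 for RN7SL2, and for VTRNA1-1 it changed sign, to −1.49. For RMRP it moved from −1.62 to −3.33 and for RPPH1 from −2.89 to −4.56. Both moves were within the SD over the 25 libraries (2.32 and 2.03), which was 0.59 and 0.67 over the 14 tag-only libraries. With the highest peak per library in place of the mean, RN7SL2 had −2.10. These shifts follow from how the alternatives are built. Depth in reads is unknown, so a library without a VTRNA1-1 peak may lack signal or reads.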
